A study of Mus musculus with 12 samples.

Results

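Reads across single exon-exon junctions were compared between cultured mouse neocortical cells given DRB with bicuculline and the same kind of culture given DRB alone. Every junction in the table of these 4 libraries was taken, each distinct coordinate once, which gave 431143 junctions, and 4 of the 12 libraries of the study were used. DRB with bicuculline (2 libraries) and DRB alone (2 libraries) both came from wild-type NMRI mice, as dissociated cells of the neocortex at embryonic day E16.5 that were grown for 14 days. Both groups received DRB at 50 uM for 2 hours, so neither group is untreated, and the first also received bicuculline at 20 uM for 1 hour. The labels do not give the order in which the drugs were added, the vehicle, or whether libraries a and b stem from different cultures, so every p-value reflects library-to-library spread alone, possibly of technical origin. The letters a and b come from the column names. The design text states that the comparison was made to look at activity-dependent splicing while transcription is blocked.

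DRB inhibits the kinase CDK9, which releases RNA polymerase II from pausing near gene starts, and so blocks productive elongation. Bicuculline blocks GABA-A receptors, the main fast inhibitory receptors of the cortex, and raises the firing of the network. Firing neurons switch on immediate early genes, which need no new protein for their induction and encode transcription factors and synaptic or signalling proteins. Some introns are kept in polyadenylated nuclear RNA and can be spliced later, without new transcription. A read across a junction shows that an RNA was spliced, but not when it was transcribed.

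The libraries held 69832287 and 62407103 junction reads with bicuculline, and 65715821 and 62580821 with DRB alone. In all 4, 99.2% of these reads crossed introns annotated in GENCODE mouse release 21 (mm10, GRCm38 coordinates). After a filter on low counts, 146729 junctions in 13396 genes were tested, of which 138473 were annotated introns. All 8 neuron markers looked for were measured, and their summed level was 3903 and 3755 CPM (reads scaled to a library of 1000000) with bicuculline, against 3976 and 3821 CPM with DRB alone. Astrocyte markers summed to 2184 and 2135 CPM with bicuculline, against 2150 and 2255 CPM, and oligodendrocyte and myelin markers to 71.5 and 77.8 CPM, against 80.2 and 80.5 CPM. The cultures therefore held glia beside neurons, and no junction of the neuron, interneuron, astrocyte, oligodendrocyte, precursor or endothelial marker lists was called. Fewer cells of a type and less RNA per cell cannot be told apart in such bulk samples.

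With bicuculline, 99 junctions rose and 16 fell at an adjusted p of 0.05 (edgeR's quasi-likelihood test, Benjamini-Hochberg over all junctions tested), which is 0.0675% and 0.0109% of those tested (0.0784% together). The junctions that rose lay in 31 genes (0.231% of genes with a tested junction), and those that fell in 4 (0.0299%). At an unadjusted p under 0.05 there were 3270 higher and 3163 lower junctions, 4.38% of those tested. The change was at least 2-fold for 68 of the 99 and for 6 of the 16. Of the 31 genes, 22 belong to a list of activity or splicing genes and 9 to none. The lists were chosen with earlier results of these data known, so this and later list counts are descriptions, not independent support. The count of falling junctions rested on single libraries: it was 42 without bicuculline library b and 26 without DRB-alone library a. Only 4 of the 16 were called without bicuculline library a, and 6 without DRB-alone library b.

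**Figure D1:**
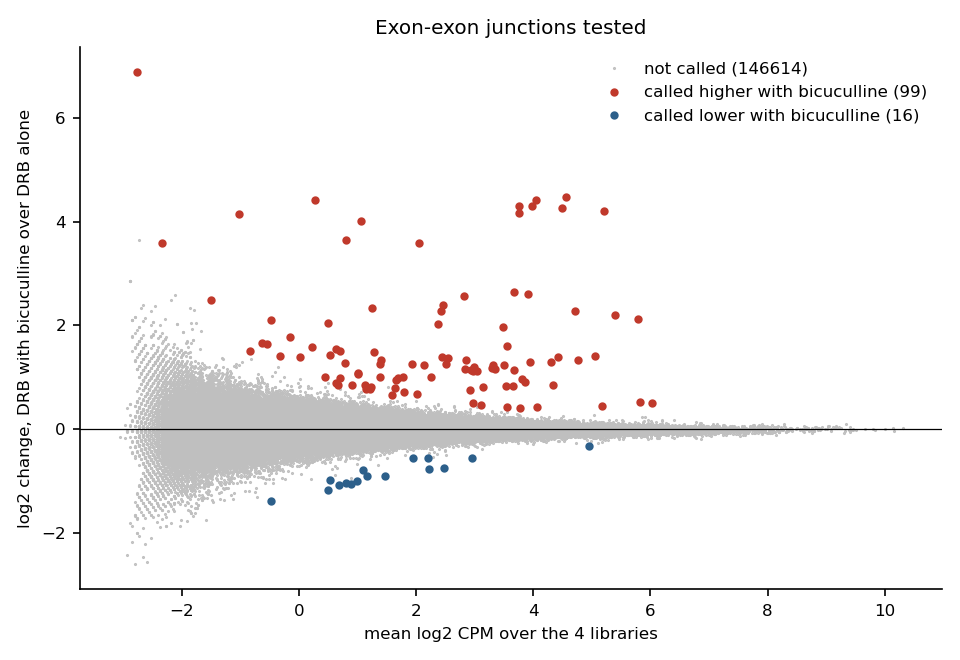
Log2 change (DRB with bicuculline over DRB alone, vertical) against mean log2 CPM over the 4 libraries (horizontal) for 146729 junctions, each a point. The 99 junctions that rose (red) reach far above the grey cloud, while the 16 that fell (blue) sit at its lower edge; the topmost point is a Fosb junction with 0 reads in both DRB-alone libraries, whose fitted value depends on the prior count.

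The junctions that rose tended to be short introns of compact genes. Their median intron length was 369 nt (quartiles 180 and 890.5), against 1326 nt (459 and 3254) for all tested. Among the 94 of them that are annotated introns, 18 were first introns (19.2%), against 9.08% of annotated introns tested, and 83 lay between coding exons. In 25 of the genes the summed junctions were also called higher. All tested junctions of these 25 had a median length of 440.5 nt, and 24.0% of their annotated introns were first introns. The rising junctions were thus not richer in first introns than these genes as a whole. The 29 genes with an annotated span had a median of 5.96 kb, against 27.0 kb for 12882 tested genes. Their spans ran from 1.79 to 148 kb, and 20 of the 29 were under 20 kb. These are descriptions, since junctions of 1 gene share its transcripts.

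Of 18 immediate early transcription factor genes listed, 15 had a tested junction, 9 had one that rose and none had one that fell. In junctions, 33 of 83 rose, and the median log2 change of the list's annotated junctions was 0.68, against -0.002 for all annotated junctions. Ier2, Jun and Junb had no tested junction.

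Npas4, a neuron-specific factor that responds to calcium influx, rose at all 7 of its introns. Its intron 5 junction (chr19:4987451-4987777, minus strand, 327 nt) is shown because it had the smallest p of all junctions. The 30 bases of spliced RNA are given as DNA, read from the GENCODE transcript, with 2 bases on each side of the join in capitals.
Npas4 intron 5 junction: aacactaccgcctGTTGgctgaaagtggag
With bicuculline, 3003 and 2896 reads crossed it, against 126 and 130 reads with DRB alone, a log2 change of 4.48 ± 0.0871 (SE, adjusted p = 4.21e-32). The groups lay far apart at each Npas4 junction. The changes of the 7 ran from 4.17 to 4.48 on the log2 scale, so the first and the last intron moved alike: intron 1 had 1791 and 1589 reads with bicuculline, against 72 and 94 with DRB alone, and intron 7 had 5091 and 4094, against 206 and 272.

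Fos, a partner in the AP-1 transcription factor, rose at its 3 main introns. Intron 3 (chr12:85475700-85475816, 117 nt) had 6495 and 5358 reads with bicuculline, against 1295 and 1346 with DRB alone, a log2 change of 2.11 ± 0.0604 (adjusted p = 1.13e-26). Intron 1 changed by 2.27 and intron 2 by 2.20. Fosb, its relative, rose at all 6 tested junctions. Its intron 2 (chr7:19306667-19307119, 453 nt) had 1841 and 1541 reads with bicuculline, against 279 and 262 with DRB alone, a log2 change of 2.59 ± 0.0821 (adjusted p = 4.75e-25). The groups did not overlap at any of these junctions. Here and below, such a gap adds no support to a call, since the junctions were picked by that test.

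A pair of the Fosb junctions are not annotated and lie within an annotated first exon. The shorter (chr7:19309872-19309979, 108 nt) had 66 and 48 reads with bicuculline, against 3 and 3 with DRB alone. The longer (chr7:19309764-19309979, 216 nt), which shares its 5′ splice site, had 17 and 13 reads with bicuculline and 0 in both DRB-alone libraries.

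The Nr4a genes encode orphan nuclear receptors that respond early to activity. Nr4a1 rose at 7 of 9 tested junctions. Its intron 5 (chr15:101272305-101272717, 413 nt) had 3403 and 2962 reads with bicuculline, against 1064 and 1256 with DRB alone, a log2 change of 1.40 ± 0.0691 (adjusted p = 2.62e-18). Nr4a2 rose at 4 of 10 junctions, by 0.67 to 0.81. Nr4a3 rose at 2 of 8, introns 5 and 7, by 0.41 and 0.42, and all 8 of its annotated junctions had values above 0. Thus the family spans a wide range of change, with Nr4a1 highest.

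The other members that rose were zinc finger factors. Egr4, with 1 tested junction (chr6:85512944-85513264, 321 nt), had 69 and 77 reads with bicuculline, against 14 and 19 with DRB alone, a log2 change of 2.09 ± 0.296 (adjusted p = 4.06e-05). Egr1, also with 1, had 1151 and 957 reads with bicuculline, against 484 and 665 with DRB alone, and rose by 0.82 ± 0.0955 (adjusted p = 4.36e-07). Klf4 rose at 2 of 4 junctions on few reads; intron 4 had 37 and 34 with bicuculline, against 5 and 7. Atf3, Egr2, Egr3, Fosl2, Maff and Per1 had no called junction. The smallest adjusted p among Atf3 junctions was 0.427, at intron 2, which had 94 and 93 reads with bicuculline, against 57 and 48 with DRB alone.

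Immediate early effectors are the signalling, synaptic and growth-control products of the same response. Of 20 genes listed, 17 were tested, 9 had a junction that rose and none had one that fell. In junctions, 24 of 67 rose, with a median log2 change of 0.60 over annotated junctions. Homer1, a postsynaptic scaffold gene of the list, had no junction below an adjusted p of 0.904. Its junctions of smallest p were those of introns 2 and 4, with log2 changes of 0.32 and 0.28. Intron 2 had 496 and 469 reads with bicuculline, against 407 and 342 with DRB alone. Intron 4 had 637 and 578, against 497 and 469.

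Arc, a synaptic protein that takes part in AMPA receptor removal, has its introns in the 3′ untranslated region. Intron 2 (chr15:74669994-74670179, 186 nt) had 570 and 421 reads with bicuculline, against 29 and 50 with DRB alone, a log2 change of 3.59 ± 0.168 (adjusted p = 4.84e-19). Intron 1 has acceptors 3 nt apart (248 and 245 nt). The longer form had 168 and 126 reads with bicuculline, against 5 and 8 with DRB alone, and the shorter 221 and 194, against 15 and 17. The longer form took 43.2% and 39.4% of the reads at their shared 5′ splice site with bicuculline, against 25% (95% Wilson interval 11.2 to 46.9, counting error only) and 32.0% (17.2 to 51.6) with DRB alone. Both forms rose, and the few reads with DRB alone leave intervals that cover the bicuculline shares.

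Negative regulators of growth and MAP kinase signalling followed. Gadd45g, a stress and growth-arrest protein, had 853 and 721 reads at intron 1 (chr13:51846833-51847351, 519 nt) with bicuculline, against 142 and 114 with DRB alone, a log2 change of 2.57 ± 0.109 (adjusted p = 1.67e-20). Its relative Gadd45b had 175 and 133 reads at intron 3 (chr10:80931252-80931532, 281 nt) with bicuculline, against 57 and 48 with DRB alone, a log2 change of 1.5 ± 0.187 (adjusted p = 2.38e-06). Both genes rose at all 3 of their introns, with no overlap between groups. Dusp1, a phosphatase that inactivates MAP kinases, had 1249 and 1088 reads at intron 5 (chr17:26506651-26506984, 334 nt) with bicuculline, against 252 and 327 with DRB alone, a log2 change of 1.96 ± 0.0947 (adjusted p = 1.45e-18). It rose at all 3 tested junctions, while the ERK phosphatase Dusp6 rose at 1 of 2, by 0.41.

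Sik1, a kinase of the salt-inducible family, rose at 7 of 13 junctions. Its intron 3 (chr17:31851597-31854207, 2611 nt) had 303 and 254 reads with bicuculline, against 139 and 133 with DRB alone, a log2 change of 0.98 ± 0.132 (adjusted p = 1.21e-05). The antiproliferative Btg2 has 1 intron (chr1:134077704-134078911, 1208 nt), with 244 and 208 reads with bicuculline, against 104 and 115 with DRB alone, a log2 change of 0.99 ± 0.145 (adjusted p = 7.73e-05). Among small GTPases of the Arl family, Arl4d had 104 and 71 reads with bicuculline, against 19 and 30 with DRB alone, at its 1 junction, and rose by 1.78 ± 0.266 (adjusted p = 1.28e-04), and Arl5b rose at 2 of 6 junctions. The groups did not overlap at any of these.

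Of 20 late activity genes, 18 were tested and 3 had a junction that rose, 22 of 146 junctions in all, with a median log2 change of 0.08. Plk2, a kinase that tunes down synapses after strong activity, rose at all 13 introns within a narrow band of 1.12 to 1.36. Its last intron (chr13:110399874-110400032, 159 nt) had 1256 and 1058 reads with bicuculline, against 488 and 525 with DRB alone, a log2 change of 1.14 ± 0.0798 (adjusted p = 2.62e-13). Rgs2, which speeds the shut-off of G proteins, had 1288 and 1143 reads at intron 1 (chr1:144003054-144004008, 955 nt) with bicuculline, against 595 and 609, a log2 change of 0.96 ± 0.0751 (adjusted p = 6.43e-12). Tiparp, a mono-ADP-ribosyltransferase, had 526 and 494 reads at intron 4 (chr3:65547686-65552535, 4850 nt) with bicuculline, against 166 and 213, a log2 change of 1.38 ± 0.116 (adjusted p = 6.24e-11). Each of the 3 genes was higher in both bicuculline libraries than in both DRB-alone libraries at these junctions.

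Other genes that rose are on no list. Spty2d1, related to a yeast chromatin factor, rose at all 5 introns; intron 5 (chr7:46993387-46994564, 1178 nt) had 233 and 232 reads with bicuculline, against 73 and 88 with DRB alone, a log2 change of 1.48 ± 0.157 (adjusted p = 3.85e-08). The kinase gene Pim3 rose at 2 of 5, and intron 5 (chr15:88864493-88864574, 82 nt) had 326 and 269 reads with bicuculline, against 119 and 166, a log2 change of 1.01 ± 0.14 (adjusted p = 2.75e-05). Cyr61, a secreted matrix protein, rose at 4 of 5 junctions by 0.45 to 0.51. Fam150b rose at 2 of 4, and the phosphatase gene Dusp14 and the protocadherin gene Pcdh8 at 1 each, by 0.88 and 0.47. The groups did not overlap at the Spty2d1 and Pim3 junctions.

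The RefSeq promoter table (GRCm38.p6, 250 bases before and 50 after each start) held 24 of the 31 genes with a rising junction. The cAMP response element, TGACGTCA, the site bound by CREB, was found in 5 of the 24 (Arl4d, Arl5b, Btg2, Dusp1 and Plk2), against 3.67% of 10135 tested genes and 1.79% of all 32851 promoters. Its shorter core TGACG, which also lies within the full element, was found on either strand in 14 of 24, against 35.2% of tested genes and 20.8% of promoters. The serum response element, the MEF2 element and the AP-1 site TGANTCA were in none of the 24, against 1.56%, 0.503% and 6.10% of tested genes. At such low rates, an absence from 24 genes says little, and sites further than 250 bases before the start were not searched. A match describes these letters and is not evidence of binding. The windows below show where matches lie in some of the genes that rose and held a match. Each lies before the start, reads 5′ to 3′ on the gene's strand and has the matches in capitals.
Dusp1, chr17:26508572-26508651, minus strand: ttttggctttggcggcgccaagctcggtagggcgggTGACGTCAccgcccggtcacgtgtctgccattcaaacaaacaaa
Plk2, chr13:110394946-110395025, plus strand: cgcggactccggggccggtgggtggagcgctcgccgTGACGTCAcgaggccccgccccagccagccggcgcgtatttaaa
Btg2, chr1:134079278-134079357, minus strand: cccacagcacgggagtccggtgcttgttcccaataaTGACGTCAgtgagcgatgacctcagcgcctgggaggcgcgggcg
Npas4, chr19:4990104-4990183, minus strand: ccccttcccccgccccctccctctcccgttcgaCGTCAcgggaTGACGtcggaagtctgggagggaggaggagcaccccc
The full element began 143, 62 and 166 bases before the start in Dusp1, Plk2 and Btg2, and Npas4 held a pair of these cores on opposite strands, 179 and 169 bases before its start.

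Within the genes that had a called junction, annotated junctions mostly had values in 1 direction. These genes were picked for such a call, and called annotated junctions are counted, so the agreement is partly built in. No such share over all tested genes is given for comparison. Of the 35 genes with a called junction, 31 had at least 2 annotated junctions tested, and in 25 of these all of them had values in 1 direction. In 13 genes every tested junction was called, among them Arl4d, Btg2, Egr1 and Egr4. Each of these named genes had only 1 tested junction, so for them this follows from having a call. In Clk1, Dok5, Plagl1, Atp1b1 and Pcsk6, 1 or 2 called junctions stood apart from the annotated junctions that were not called. For 8 genes, holding 9 called junctions, the sum of all junctions of the gene was not called: Atp1b1, Atp6v0e2, Clk1, Dok5, Dusp14, Pcdh8, Pcsk6 and Plagl1. The sums called 26 genes higher and 3 lower of 14603 tested (0.178% and 0.0205%), and among them Ptgs2 and Mrc1 had no called junction. The counts from sums moved with single libraries: 40 and 34 were called without bicuculline library b, and 56 and 29 without DRB-alone library b, while the lower count was 10 without bicuculline library a and 14 without DRB-alone library a.

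**Figure D2:**
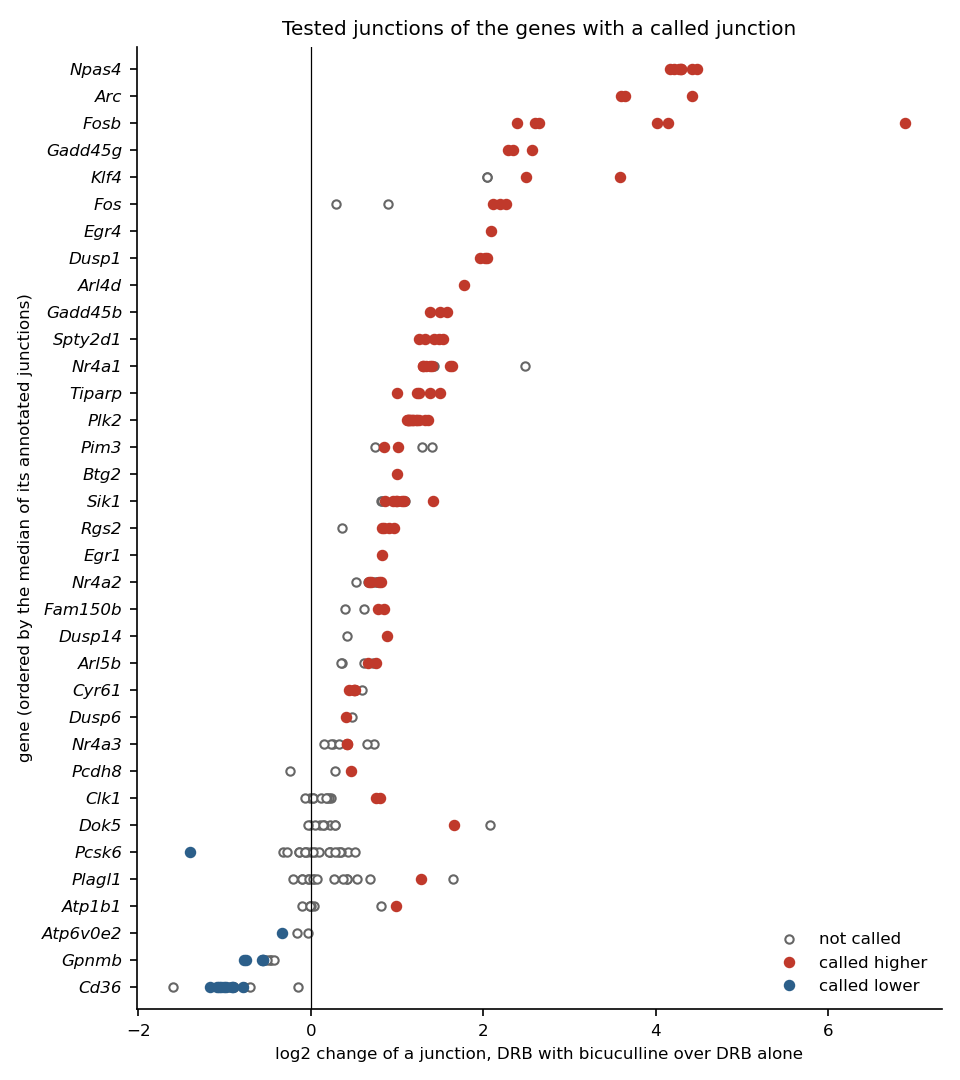
Log2 change (DRB with bicuculline over DRB alone, horizontal) of each tested junction in the 35 genes with a called one, ordered by the median of the gene's annotated junctions; filled points passed the test (red higher, blue lower) and open points did not. Npas4, Plk2 and Dusp1 form tight filled clusters, while Clk1, Dok5, Plagl1 and Pcsk6 have filled points away from the annotated junctions that were not called. The Fosb point beyond 6 has 0 reads with DRB alone.

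**Figure D3:**
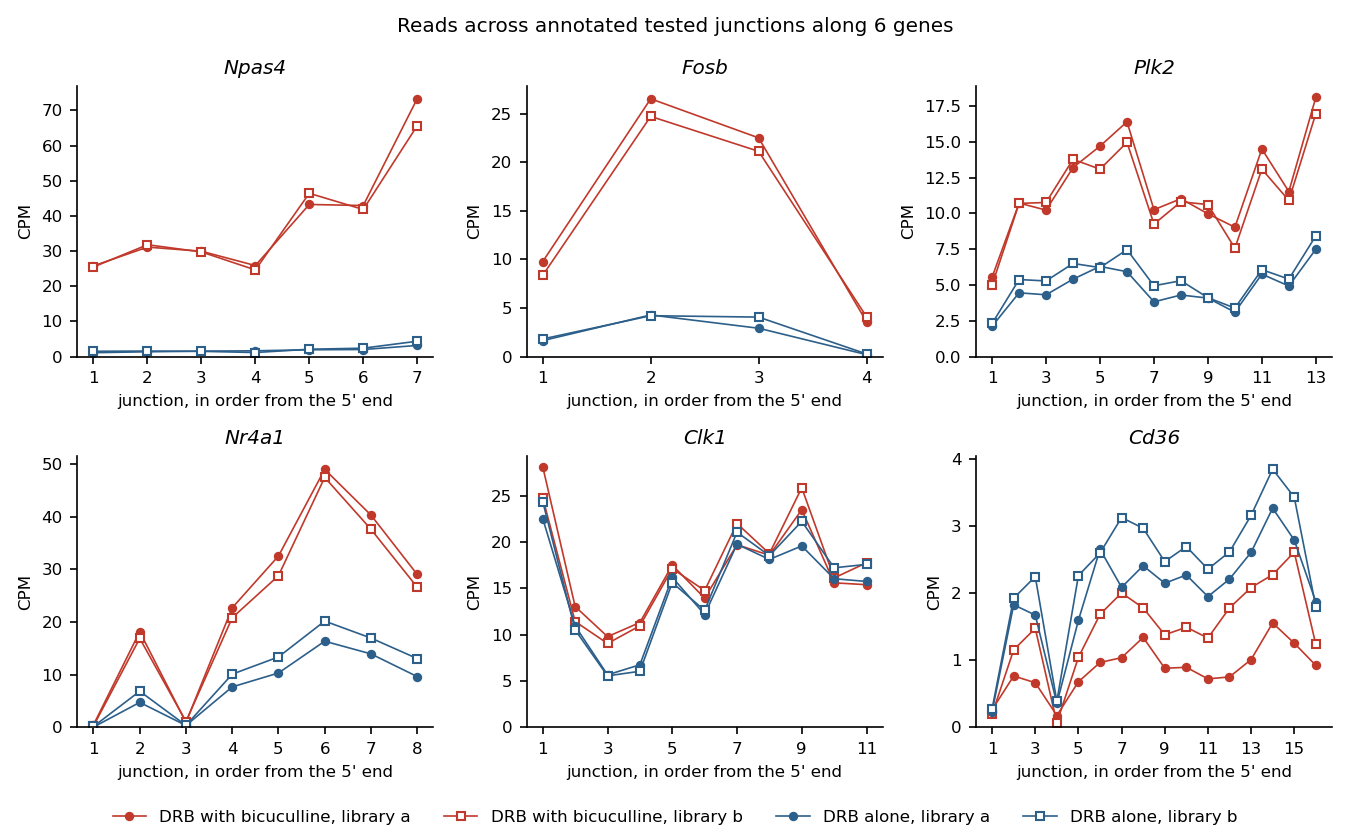
CPM at each annotated tested junction, in order from the 5′ end, in 6 genes and 4 libraries (red, DRB with bicuculline; blue, DRB alone; circles, library a; squares, library b). The bicuculline lines lie above at every Npas4, Fosb and Plk2 junction, part from the others at introns 3 and 4 of Clk1, and lie below at 15 of the 16 Cd36 points.

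Junctions that fell lay in Cd36 (9 of 16 tested), Gpnmb (5 of 10), Atp6v0e2 and Pcsk6 (1 each). Cd36, a scavenger receptor of macrophages and endothelium, had 108 and 142 reads at intron 13 (chr5:17787741-17788251, 511 nt) with bicuculline, against 213 and 240 with DRB alone, a log2 change of -0.90 ± 0.153 (adjusted p = 0.00148). Gpnmb, a lysosomal glycoprotein of activated macrophages, had 256 and 288 reads at intron 10 (chr6:49055715-49056160, 446 nt) with bicuculline, against 398 and 488, a log2 change of -0.75 ± 0.117 (adjusted p = 2.85e-04). The groups did not overlap at either junction. The Cd36 call was lost without bicuculline library a (adjusted p = 0.178) and with DESeq2 in place of edgeR (adjusted p = 0.119).

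Both genes are on the list of microglia and macrophage markers, of which 12 of 14 genes were tested and 14 of 102 junctions fell. Of the 102, 42 were lower at an unadjusted p under 0.05 and 0 were higher, with 15 of the 42 in Cd36 and 10 in Gpnmb. Without these genes, 17 of 76 were lower at that level, 8 of them in Mrc1 and 4 in Trem2. Over all junctions tested, 4.38% had an unadjusted p under 0.05 in either direction, and 0.0109% were called lower. The whole list summed to 115 and 153 reads per 1000000 junction reads with bicuculline, against 177 and 192 with DRB alone. Without Cd36 and Gpnmb, the remaining 12 genes summed to 61.8 and 84.1 with bicuculline on the same scale, against 88.6 and 85.9, so library a with bicuculline was the lowest and the other 3 lay close together. Trem2, a microglial lipid receptor, had 420 and 575 reads with bicuculline, against 689 and 599. The homeostatic microglia markers P2ry12 and Tmem119 had at most 13 reads and 0 reads in any library. The part of microglia or macrophage RNA in the Cd36 and Gpnmb results was not tested.

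Atp6v0e2, a subunit of the proton pump of vesicles, had 1968 and 1618 reads at intron 2 (chr6:48539272-48540039, 768 nt) with bicuculline, against 2178 and 2192 with DRB alone, a log2 change of -0.34 ± 0.0621 (adjusted p = 0.00539). It lost the call without bicuculline library b (adjusted p = 0.127) and without DRB-alone library b (adjusted p = 0.25).

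A junction can also change against the rest of its gene. That was tested for 144568 junctions in 12331 genes (edgeR's diffSpliceDGE), as the log2 change of the junction beyond that of the other junctions of its gene. The share of 3 junctions grew (0.00208%) and that of 1 shrank (0.000692%), or 0.00277% in both directions, and 2030 and 2041 had an unadjusted p under 0.05. None of the larger shares was called without bicuculline library a, and 1 without DRB-alone library a. Of the 3, 2 flank exon 4 of Clk1.

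Clk1 encodes a kinase that phosphorylates SR splicing factors, and introns 3 and 4 of its own RNA, on either side of exon 4, are known to stay in nuclear transcripts. Exon 4 is 91 nt long (chr1:58420121-58420211, minus strand). It is shown with 15 bases of each neighbouring exon, read from the GENCODE transcript, with the exon in capitals; below it stand both splice sites of intron 3 and the 5′ site of intron 4, read from an annotated transcript that keeps these introns, with the first or last 2 intron bases in capitals.
Clk1 exon 4: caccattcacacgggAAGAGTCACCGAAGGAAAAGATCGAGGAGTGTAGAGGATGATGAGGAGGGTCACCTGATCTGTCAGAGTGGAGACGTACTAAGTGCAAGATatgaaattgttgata
Clk1 intron 3, 5′ site: caccattcacacgggGTatgagtgcctttt
Clk1 intron 3, 3′ site: acttgacgtgtccAGaagagtcaccgaagg
Clk1 intron 4, 5′ site: tactaagtgcaagatGTatagaatattttt
Intron 4 (chr1:58419734-58420120, 387 nt) had 785 and 683 reads with bicuculline, against 439 and 376 with DRB alone, a log2 change of 0.80 ± 0.088 (adjusted p = 1.04e-07). Intron 3 (chr1:58420212-58421082, 871 nt) had 679 and 564 reads with bicuculline, against 368 and 345, a log2 change of 0.75 ± 0.0923 (adjusted p = 1.66e-06). Both bicuculline libraries stood above both DRB-alone libraries at each.

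The other 9 tested Clk1 junctions did not pass, with log2 changes of -0.07 to 0.24. Intron 10, the highest of them, had 1632 and 1614 reads with bicuculline, against 1276 and 1386 with DRB alone (adjusted p = 0.653). Set against the mean of these 9, intron 4 reads were 61.5% and 58.4% with bicuculline, against 40.1% and 34.0% with DRB alone, and intron 3 reads were 53.2% and 48.3%, against 33.6% and 31.2%. In both groups these introns were thus crossed less often than the rest of the gene. No other tested junction shared the 5′ site of intron 3 or the 3′ site of intron 4. Reads that skip exon 4 were therefore not compared, and intron retention was not analysed. The reason for the lower crossing was not tested. The log2 change beyond the rest of the gene was 0.64 ± 0.0946 for intron 4 (adjusted p = 2.91e-04) and 0.59 ± 0.0998 for intron 3 (adjusted p = 0.00452). That call was lost without bicuculline library a (adjusted p = 0.0779 for intron 4 and 0.893 for intron 3) and without DRB-alone library b (0.873 and 0.932), and for intron 3 also without DRB-alone library a (0.191).

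The remaining junction whose share grew is an unannotated one of 116 nt in Plagl1, a zinc finger gene imprinted in mouse (chr10:13130746-13130861). It has no annotated splice site at either end. It shares its acceptor with another tested junction, and its share there changed by 0.24 ± 0.192 on the log2 scale, which did not pass. It had 179 and 137 reads with bicuculline, against 53 and 73 with DRB alone, a log2 change of 1.27 ± 0.185 (adjusted p = 7.01e-05), while the 10 annotated Plagl1 junctions had a median log2 change of 0.01. Its reads were 76.9% and 68.2% of the mean of those 10 with bicuculline, against 25% and 34.4% with DRB alone. The change beyond the gene was 1.21 ± 0.202 (adjusted p = 0.0027). It was lost without bicuculline library a (adjusted p = 0.28) and without DRB-alone library a (adjusted p = 1).

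The share that shrank belongs to an alternative first junction of Fos (chr12:85474796-85474934, plus strand, 139 nt), whose 5′ splice site lies inside the main intron 1 (chr12:85474181-85474934, 754 nt). Both end at the same acceptor, and the shorter is annotated only in a noncoding transcript. The joined RNAs are shown because they differ in the upstream exon and share the downstream one, with 2 bases on each side of the join in capitals.
Fos main first junction: cctgtcaacacacAGGActtttgcgcagat
Fos alternative first junction: tttatctccgatgAGGActtttgcgcagat
The alternative junction had 154 and 121 reads with bicuculline, against 109 and 108 with DRB alone, a log2 change of 0.29 ± 0.162 that did not pass (adjusted p = 1). The main junction had 3088 and 2628 reads, against 522 and 623. The alternative thus took 4.74% (95% Wilson interval 4.07 to 5.53) and 4.4% (3.70 to 5.23) of reads at the acceptor with bicuculline, against 17.2% (14.5 to 20.4) and 14.7% (12.4 to 17.5) with DRB alone. The intervals of the groups lay apart. Its log2 change beyond the gene was -1.84 ± 0.201 (adjusted p = 2.31e-06), and that beyond the main junction -1.79 ± 0.183 (adjusted p = 1.96e-10).

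Intron 4 of Fosb came close to the threshold for a larger share. Its removal gives the short protein ΔFosB, which lacks the end of the full-length protein; 4 of 7 annotated transcripts keep these 140 bases inside their coding sequence and 2 splice them out. The intron (chr7:19305007-19305146, minus strand) is shown with 15 bases on each side and its first and last 2 bases in capitals, because the spliced and unspliced RNA encode different proteins.
Fosb intron 4: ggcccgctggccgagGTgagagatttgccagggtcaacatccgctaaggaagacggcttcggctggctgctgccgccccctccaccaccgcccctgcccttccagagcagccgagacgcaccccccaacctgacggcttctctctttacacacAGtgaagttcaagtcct
It was crossed by 249 and 256 reads with bicuculline, against 13 and 17 with DRB alone, a log2 change of 4.02 ± 0.217 (adjusted p = 6.03e-17). The other 3 annotated Fosb introns changed by 2.39 to 2.65. Its reads were 18.3% and 22.7% of their mean with bicuculline, against 6.77% and 8.12% with DRB alone, and both bicuculline libraries were higher. The change beyond the gene was 1.36 on the log2 scale and missed the threshold (adjusted p = 0.065).

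A further near miss was intron 18 of Pcsk6, a proprotein convertase gene (chr7:66035269-66038980, 3712 nt), chosen after its values were seen for the junction test and by rank for the share. It had 23 and 27 reads with bicuculline, against 54 and 74 with DRB alone, a log2 change of -1.40 ± 0.283 (adjusted p = 0.0214), while the median over its 21 annotated junctions was 0.05. The change beyond the gene was -1.42 ± 0.279 (adjusted p = 0.0535). The junction of Efr3a with the next smallest p for a smaller share, on 1 and 4 reads against 11 and 19, was far from it (adjusted p = 0.601).

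**Figure D4:**
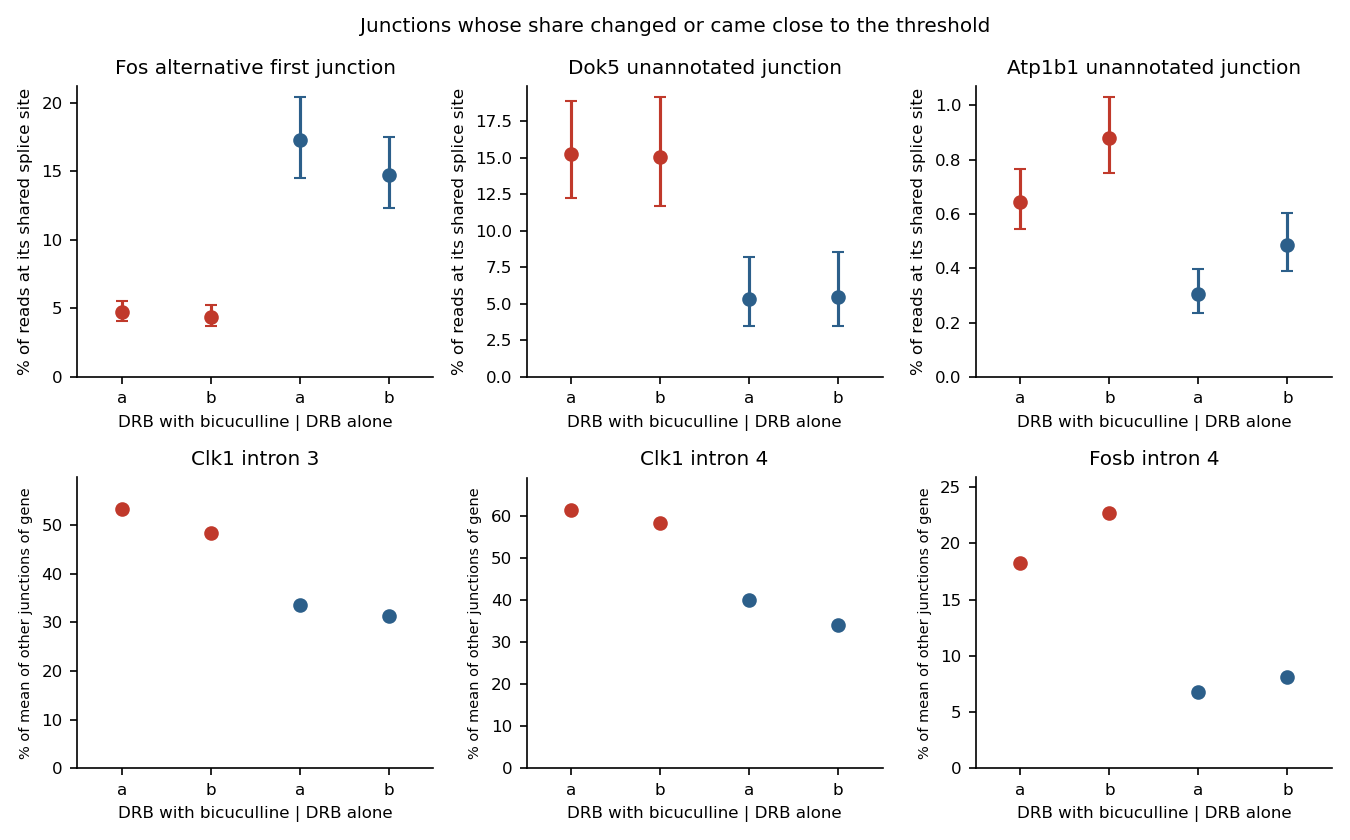
Top, percentage of reads at a shared splice site taken by the alternative Fos junction and by unannotated junctions of Dok5 and Atp1b1, with 95% Wilson intervals (counting error only); bottom, reads of Clk1 introns 3 and 4 and of Fosb intron 4 as a percentage of the mean of the other annotated tested junctions of the gene. Libraries a and b of DRB with bicuculline are red, on the left, and those of DRB alone blue; the Fos share is lower with bicuculline and the other 5 are higher.

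The choice between junctions at a shared splice site was tested for 23925 junction and site pairs, at 5672 donor and 5592 acceptor sites. The share grew for 2 (0.00836%) and shrank for 1 (0.00418%), or 0.0125% in all, which is the Fos junction above; 301 and 258 had an unadjusted p under 0.05. Both that grew join a known donor to an unannotated acceptor. In Dok5, a docking protein of receptor tyrosine kinases, the junction (chr2:170841556-170844349, 2794 nt) had 68 and 54 reads with bicuculline, against 19 and 18 with DRB alone. That was 15.2% (95% Wilson interval 12.2 to 18.9) and 15% (11.7 to 19.1) of reads at its donor with bicuculline, against 5.35% (3.45 to 8.21) and 5.49% (3.5 to 8.51). The log2 change of the share was 1.49 ± 0.303 (adjusted p = 0.0472). It lost the call without any one of the libraries (adjusted p of 0.501 to 1).

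In Atp1b1, a subunit of the sodium pump, the junction (chr1:164442452-164443194, 743 nt) had 129 and 150 reads with bicuculline, against 56 and 80 with DRB alone. Its share of the donor was 0.645% (95% Wilson interval 0.543 to 0.766) and 0.88% (0.75 to 1.03) with bicuculline, against 0.305% (0.235 to 0.396) and 0.485% (0.39 to 0.603) with DRB alone, so the ranges did not overlap but their nearest intervals did. The log2 change of the share was 0.95 ± 0.193 (adjusted p = 0.0472), and the call was lost without bicuculline library b or without DRB-alone library a (adjusted p = 1 in each). Both the Dok5 and the Atp1b1 call were also lost with no filter on low counts (adjusted p = 0.895 for each) and with limma voom (adjusted p = 0.0548 for each). The next by p were Rapgef5 (16 and 13 reads with bicuculline, against 1 and 1; adjusted p = 0.0615) for a larger share, and Bcan (1 and 3 reads, against 12 and 13; adjusted p = 0.287) for a smaller one. None of these passed.

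The other gene lists held no called junction except Clk1. Among genes with detained introns and splicing kinases, 2 of 620 junctions in 34 genes rose, both of Clk1, and the median log2 change was 0.01. Clk4, a close relative of Clk1, had 553 and 483 reads at its junction of smallest p (chr11:51272023-51273077) with bicuculline, against 444 and 372 with DRB alone, a log2 change of 0.30 that did not pass (adjusted p = 1). SR proteins, the substrates of these kinases, had 0 of 130 junctions called, with 6 higher and 3 lower at an unadjusted p under 0.05. Genes known for activity-regulated alternative splicing had 0 of 569, with 14 higher and 10 lower at that level. The GABA-A receptor subunits, bicuculline's target, had 0 of 130 (2 and 6), the pause release machinery, the target of DRB, 0 of 253 (7 and 4), and the signalling proteins upstream of activity genes 0 of 322 (4 and 7). Their median log2 changes lay between -0.02 and 0.01. Over all junctions tested, 0.0784% were called and 4.38% had an unadjusted p under 0.05. At that share, lists of this size would hold few or no calls, so a lack of calls says little about these genes.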

How the data were processed

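Polyadenylated RNA was sequenced in stranded libraries. The submitters' processing notes name STAR 2.4.0f1 and the builds mm10 and GRCm38. No source used here gives the tool or settings that counted junction reads. Per the file headers, the deposited values are whole-number counts of reads across each junction, with no normalisation, in 449433 rows. The header has 39 names for 36 cells a row, so columns were read by number. Column names show the group but no replicate number; the DRB-alone columns were assigned by elimination. No library could be tied to another 24 columns of per-library values, which stay out, so intron retention is not analysed here.

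Rows were reduced to 431143 coordinates, each once; at 4730 coordinates listed on both strands, the strand with more reads was kept. A read that crosses several junctions counts at each. Genes without introns were not measured. Reads carry no molecular identifiers, so intervals cover counting error only. Introns were numbered in the coding transcript of GENCODE mouse release 21 with the most introns.

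Counts were filtered with filterByExpr (minimum count 10, minimum total 15), scaled by TMM (factors 0.9961 to 1.005) and tested two-sided with edgeR 4.0.16 in R 4.3.3, without a replicate block; CPM uses TMM-scaled library sizes. Shares were tested with diffSpliceDGE on the same fit, by gene and by shared splice site, with Benjamini-Hochberg adjustment over all features of a test, called at 0.05. SE is the log2 change divided by the square root of F. Junctions were named by a rule: the called junction of smallest p in up to 15 genes a direction, ranked by the largest change at a mean log2 CPM of at least 0, up to 4 genes a list, and the shares with the smallest p. Further members are described beside them for their lists. Members and lists were chosen with earlier results of these data known. Alternatives were DESeq2 1.42.0, limma 3.58.1 (voom with diffSplice), RLE scaling, no filter, annotated introns only, a block on the letter, and each library left out. Shares and promoters were computed in Python 3.11.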

Additional observations from a re-analysis of the deposited data

How the results depend on the processing

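The 99 rising junctions kept their count within 1.5 times under every alternative run, from 70 with DESeq2 to 145 with the replicate block (88 to 118 with a library left out), and the direction of every named junction was kept. The 16 falling junctions became 25 with no filter on low counts, 66 with the block and 3 with DESeq2, and 12 to 42 with a library left out. Of junctions with a larger share of their gene (3), 0 to 3 were called with a library left out. Junctions with a larger share at a splice site (2) numbered 0 with no filter, 0 with annotated introns only, 4 with the block, 1 with limma voom (neither of the 2), and 0 to 3 with a library left out; those with a smaller share (1) numbered 2 with limma voom. Gene sums called higher (26) numbered 46 with no filter and 44 with the block, and 31 to 56 with a library left out. Those called lower (3) numbered 20 with no filter, 17 with the block, 1 with DESeq2, and 10 to 34 with a library left out. With a library left out the lone library of its group is assumed to vary like the others, and the filter admits more junctions. The cause of the other shifts was not tested.

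The letters a and b pair no samples by any label, and with 2 pairs the data cannot settle it: the differences between a and b correlated between the groups at r = 0.257 over 29484 junctions at mean log2 CPM 3 or above, and at 0.0421 over all 146729 (across junctions, which are not independent replicates). With the replicate block, the Fos alternative junction had a share of its gene at -1.84 with an adjusted p of 1, the Pcsk6 junction passed (0.0361) and the Rapgef5 junction passed (0.026).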

Other observations

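Unannotated exons can be seen where tested junctions, each with 1 known splice site, flank the same stretch of 10 to 500 nt. There were 781 such pairs of junctions in 647 genes. In 10 pairs both junctions were higher at an unadjusted p under 0.05, in 4 both were lower, and 1 pair held a called junction, that of Atp1b1. These examples were chosen after their values were seen.

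The Atp1b1 pair bounds a stretch of 159 nt (chr1:164442293-164442451). The called junction is described above; the other had 94 and 87 reads with bicuculline, against 37 and 62 with DRB alone (log2 change 0.82, adjusted p = 0.556). Sf3b1, a core spliceosome protein, had such a stretch of 157 nt (chr1:55007140-55007296), with 27 and 31 reads on one side with bicuculline, against 8 and 7 with DRB alone (log2 change 1.89, adjusted p = 0.16), and 17 and 17 on the other side, against 5 and 3 (log2 change 2.01, adjusted p = 0.731). Tia1, an RNA-binding splicing regulator, had a stretch of 163 nt (chr6:86419351-86419513), with 32 and 32 reads on one side with bicuculline, against 19 and 9 with DRB alone, and 40 and 22 on the other, against 16 and 19 (adjusted p = 1 for both). In the other direction, Mgat5, a glycosyltransferase gene, had a stretch of 77 nt (chr1:127414513-127414589), with 12 and 22 reads on one side with bicuculline, against 43 and 35 with DRB alone (log2 change -1.23, adjusted p = 0.641), and 26 and 16 on the other, against 46 and 47 (log2 change -1.19, adjusted p = 0.383). The groups did not overlap at any of these junctions, but the pairs were chosen for a low unadjusted p, so this adds no support. Of the 8 only the called Atp1b1 junction passed.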
